A study of Mus musculus with 6 samples.

Results

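The interferon-inducible GTPase genes Gbp2, Gbp3, Gbp7, Ifi47, Irgm1, Irgm2 and Igtp were examined in RAW264.7 cells, a macrophage line grown from a mouse tumour, by bulk RNA sequencing. The genes were chosen by symbol, and all 7 were among the 16108 genes of the deposited expression table. The acoustics-on group held 3 libraries from cells exposed for 48 h to device oscillation at 5 kHz under an 18 V peak-to-peak drive. The acoustics-off group held 3 libraries from cells kept for 48 h without acoustics, and a petri dish group named in the design was not analysed here. No interferon or other immune stimulus is named in the labels for either group. Whether the 3 libraries of a group came from separate experiments is not in the labels, so p-values measure only the spread between these libraries, which may be technical. Expression is given in FPKM, fragments scaled to transcript length and sequencing depth.

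These genes encode GTPases of the cell-autonomous defence of macrophages. Guanylate-binding proteins (GBPs) coat pathogen vacuoles and bacteria in the cytosol and promote their lysis and inflammasome activation, and immunity-related GTPases (IRGs) act on the membranes of vacuoles that hold parasites or bacteria. Interferon gamma turns the genes on through its receptor and JAK kinases, which lead to factors that bind gamma-activated sites. Type I interferons act through a complex that includes IRF9 and binds interferon-stimulated response elements. Gbp2, Gbp3 and Gbp7 are GBPs. Irgm1, Irgm2 and Igtp, also called Irgm3, are the regulatory IRGs that keep effector IRGs inactive on the cell's own membranes, and Ifi47, also called Irgd, is an effector-type IRG.

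The promoters are shown first because they can hold the elements through which interferons act on genes. A match of letters does not show that an element works, and none was tested here. A window from 250 bases before to 50 bases after each RefSeq transcription start (GRCm38.p6) was searched on both strands for GAAA, any 2 bases and GAAA again, the core of the interferon-stimulated response element, and for TTCNNNGAA, the gamma-activated site. The response-element core lay in 6 of the 7 genes, and 1079 of 27025 genes with a promoter window (3.99%) held it. Each stretch below runs 5′ to 3′ on the gene's strand, with the response-element core or its reverse complement in capitals. They are reference sequence, not read from these cells.
Gbp2 (chr3:142620594-142620623, plus strand): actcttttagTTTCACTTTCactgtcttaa
Gbp3 (chr3:142559992-142560021, plus strand): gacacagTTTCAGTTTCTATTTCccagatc
Gbp7 (chr3:142530273-142530302, plus strand): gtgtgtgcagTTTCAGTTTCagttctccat
Irgm1 (chr11:48871428-48871457, minus strand): gtttcaaGAAATAGAAACCGAAActgattc
Irgm2 (chr11:58214903-58214932, plus strand): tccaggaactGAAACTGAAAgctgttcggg
Igtp (chr11:58199512-58199541, plus strand): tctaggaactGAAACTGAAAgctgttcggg

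The core had the same orientation in all 3 GBP genes, as the reverse complement on the gene's strand, and the other orientation in Irgm1, Irgm2 and Igtp. Gbp3 and Irgm1 each held 2 overlapping matches. Gamma-activated sites were found in Gbp7 (2 matches), Irgm2 (1) and Igtp (1), and 2582 of the 27025 genes (9.55%) held one. Ifi47 held neither motif in its window, which says only that these letters are not there. The 250 bases upstream of the start are printed for Gbp7 and Igtp, 2 of the 3 genes that held both motifs, and for Ifi47, which held neither, with both motifs in capitals. None of these 3 stretches overlapped an annotated exon. By GENCODE M21, exons covered all 250 upstream bases for Irgm1, 61 for Gbp2 and 18 for the Gbp3 window with the core. The Irgm2 window (chr11:58214727-58215026) lies inside the GENCODE span of that gene. Positions relative to the start therefore hold for the RefSeq starts only.
Gbp7 (chr3:142530086-142530335, plus strand): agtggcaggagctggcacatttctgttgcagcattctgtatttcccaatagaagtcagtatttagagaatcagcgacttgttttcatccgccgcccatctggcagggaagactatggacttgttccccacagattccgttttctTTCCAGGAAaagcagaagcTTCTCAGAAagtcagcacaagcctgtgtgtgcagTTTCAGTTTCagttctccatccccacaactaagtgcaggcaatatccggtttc
Igtp (chr11:58199306-58199555, plus strand): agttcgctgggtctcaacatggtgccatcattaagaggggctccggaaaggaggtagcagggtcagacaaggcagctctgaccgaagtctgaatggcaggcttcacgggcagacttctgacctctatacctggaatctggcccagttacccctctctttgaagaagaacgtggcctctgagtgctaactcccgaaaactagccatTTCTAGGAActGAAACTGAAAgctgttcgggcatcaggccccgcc
Ifi47 (chr11:49076337-49076586, plus strand): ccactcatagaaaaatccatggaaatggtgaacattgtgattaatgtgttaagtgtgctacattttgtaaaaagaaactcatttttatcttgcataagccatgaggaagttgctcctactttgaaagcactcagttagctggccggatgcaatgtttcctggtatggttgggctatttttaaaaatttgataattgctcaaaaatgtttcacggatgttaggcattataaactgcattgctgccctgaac

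**Figure D1:**
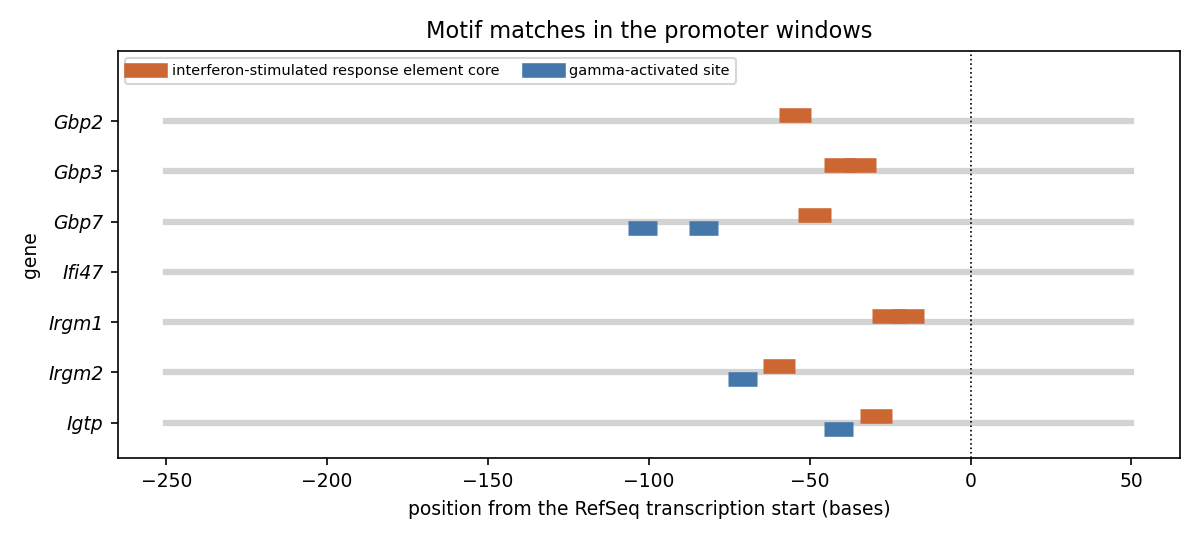
Motif matches in the promoter window of each gene, as distance in bases from the RefSeq transcription start (dotted line). Orange blocks are the response-element core and blue blocks the gamma-activated site. All matches lie upstream of the RefSeq start, between 106 and 15 bases before it, and Ifi47 has none.

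In the GENCODE M21 annotation (GRCm38), the 3 GBP members lie on the plus strand of chromosome 3, in the order Gbp7 (142530342 to 142550149), Gbp3 (142560026 to 142573209) and Gbp2 (142620602 to 142638008), with Gbp5 before them and Gbp2b between Gbp3 and Gbp2. The IRG members lie on chromosome 11. Irgm1 (48861968 to 48871683, minus strand) and Ifi47 (49076587 to 49096974, plus strand) stand in one cluster, and Igtp (58199556 to 58207591) and Irgm2 (58199618 to 58222782) overlap on the plus strand in another. How the authors shared reads between near-identical stretches is not given in the sources used here. Of the 31-base words in its transcripts, Igtp shares 15.9% with Irgm2, so the split of reads between these overlapping genes is uncertain. Gbp7 shares 10.8% with the overlapping model Gm43802. For the other members the largest share with any other gene was 9.16% (Irgm2 with Igtp), 5.52% (Gbp3 with Gbp7), 4.61% (Gbp2 with Gbp2b), 3.32% (Ifi47 with Olfr56) and 0.689% (Irgm1 with Ncbp3). Ifi47 also overlaps Gm12188 and Gbp2 overlaps Mir6381 on the opposite strand, and whether counting used strand is not stated.

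The mean over the libraries was 45286182 normalised reads summed over genes, a pooled value that does not compare libraries. Relative depths of 0.96 to 1.08 were estimated by the factor that brought low values nearest to whole numbers. The search covered a fixed band only, so a depth outside it could not have been found. All 8 macrophage markers were listed, with summed levels of 28460 to 30720 FPKM with acoustics off and 20130 to 27120 FPKM with acoustics on. Lyz2 made up most of that sum. Csf1r fell from 848, 759 and 822 FPKM to 352, 570 and 450 FPKM, and the authors' DESeq2 table called it lower (adjusted p = 0.00443). Of the 8 markers, Cd14 alone had a higher mean with acoustics on (1236 FPKM, against 1037 FPKM with acoustics off). None of the 8 T and NK cell markers was listed, nor was Siglech of plasmacytoid dendritic cells, and the listed B cell markers summed to at most 0.215 FPKM. The 3 listed markers of plasmacytoid dendritic cells summed to 420.6 to 489.6 FPKM with acoustics off and 436.9 to 683.4 FPKM with acoustics on. Bst2 made up most of that sum. Tcf4 went the other way, from 48.2, 43.3 and 43.5 FPKM to 14.5, 22.6 and 20.3 FPKM. The filtered limma test described below called Tcf4 lower (log2 difference -1.21, adjusted p = 0.0224), as it did 0.574% of all genes. Ccr9 was at most 0.0597 FPKM. The 5 fibroblast markers summed to 1.30 to 2.02 FPKM with acoustics off and 0.757 to 3.08 FPKM with acoustics on. Of the 4 neutrophil markers S100a9, Ly6g and Mpo were not listed. S100a8 stood at 0.179, 0.181 and 0.0916 FPKM in the acoustics-off libraries and at 1.52, 6.97 and 6.62 FPKM in the acoustics-on libraries, and its part in the results was not tested. Acoustics-on replicate 1 stood apart. Its score was 58.8 on the principal component that took most variance (64.4%), against 4.7 and 2.5 for acoustics-on replicates 2 and 3 and -23.5 to -19.8 for the acoustics-off libraries. The rank correlation, across 10462 genes, between transcript length and the library's difference from the acoustics-off mean was -0.55, -0.44 and 0.03 for replicates 1, 2 and 3 of the acoustics-on group. In the acoustics-off libraries it ran from -0.31 to 0.24. The part of these differences in the results was not tested, and values from the unfiltered fit without acoustics-on replicate 1 are given beside results that this library changes. That fit was chosen after seeing the data. For genes that were high only in acoustics-on replicates 2 and 3 its outcome was largely fixed by that choice.

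The 3 GBP genes were close to silent with acoustics off and were expressed at low levels in 2 of the 3 acoustics-on libraries. Gbp2, which acts on bacterial and parasite vacuoles, measured 0.0398, 0.0101 and 0.0204 FPKM in acoustics-off replicates 1 to 3, and 0.170, 2.28 and 1.87 FPKM in acoustics-on replicates 1 to 3. The group means were 0.0234 ± 0.0151 FPKM with acoustics off and 1.44 ± 1.12 FPKM with acoustics on (SD, n = 3 each). All 3 acoustics-on libraries lay above all 3 acoustics-off libraries, and replicate 1 lay much nearer to the acoustics-off libraries than to replicates 2 and 3. The depth behind these values was small. Scaling FPKM by the authors' mean normalised count gave approximate read numbers for Gbp2 of 4.06, 1.03 and 2.08 with acoustics off and 17.3, 233 and 192 with acoustics on. In bulk RNA, more cells that hold a transcript and more transcript per cell cannot be told apart.

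Gbp3, a GBP of the same chromosome 3 cluster, measured 0.162, 0.0767 and 0.0291 FPKM with acoustics off against 0.209, 1.51 and 1.74 FPKM with acoustics on. Gbp7, which helps to assemble the phagocyte oxidase on vacuoles, measured 0.0208, 0.0142 and 0.0128 FPKM with acoustics off against 0.0755, 0.491 and 0.495 FPKM with acoustics on. Both genes showed the order seen for Gbp2, with no overlap between groups and acoustics-on replicate 1 the lowest of its group by far. For Gbp3 the highest acoustics-off library (0.162) and the lowest acoustics-on library (0.209) were close, at about 15.8 and 20.4 reads. Gbp7 had about 2.40 to 3.91 reads with acoustics off and 14.2, 92.0 and 92.8 with acoustics on.

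The 3 GBP genes were below 0.5 FPKM in more than 3 libraries and so did not enter the filtered test. Without the filter, limma on log2(FPKM + 1), a scale that understates the change of low genes, gave a difference (acoustics on minus off) of 1.12 for Gbp2 (SE 0.375, adjusted p = 0.232). The difference was 0.90 for Gbp3 (SE 0.305, adjusted p = 0.235) and 0.40 for Gbp7 (SE 0.129, adjusted p = 0.223), so none of the 3 passed 0.05. With 0.1 in place of 1 added to FPKM, a combination with no filter that was chosen after seeing the data, the differences were 3.14, 2.42 and 1.77 for Gbp2, Gbp3 and Gbp7, again without passing (adjusted p = 0.131, 0.174 and 0.153). Without acoustics-on replicate 1, an alternative chosen after seeing the data, all 3 passed. The limma differences were then 1.58 for Gbp2 (adjusted p = 0.00179), 1.27 for Gbp3 (adjusted p = 0.00402) and 0.56 for Gbp7 (adjusted p = 0.00352), while 2.58% of all 16090 genes were called higher in that fit. That fit rests on 2 acoustics-on libraries and drops the acoustics-on library in which all 3 genes were lowest. Its adjusted p values are therefore no separate support for a rise.

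The authors' deposited table, made with DESeq2, called all 3 genes higher with acoustics on using all libraries. Its log2 fold change was 5.94 for Gbp2 (SE 0.946, adjusted p = 4.174e-08), 3.72 for Gbp3 (SE 0.803, adjusted p = 0.000176) and 4.45 for Gbp7 (SE 0.842, adjusted p = 8.992e-06). Of the 14522 genes with an adjusted p in the authors' deposited table, 5.08% were higher by the same rule. The calls of the 2 tests therefore differed for these genes. The authors' model works on counts, whereas the limma values come from FPKM with 1 added.

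**Figure D2:**
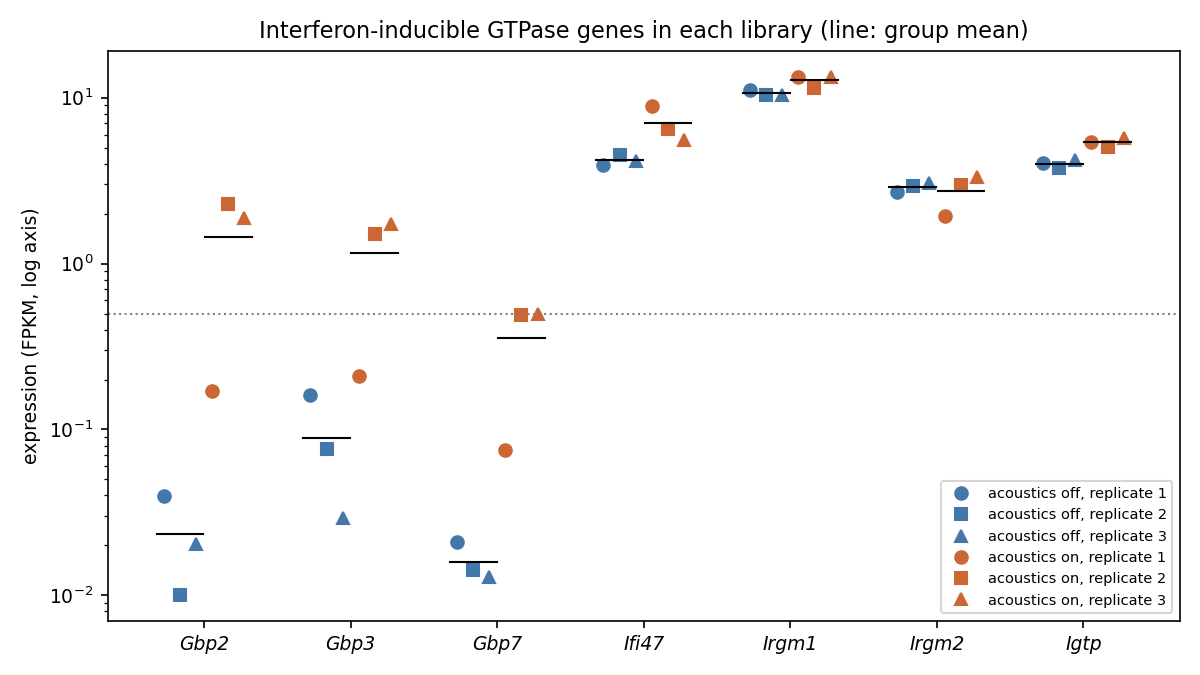
Expression of the 7 genes in each library in FPKM on a log axis, with acoustics-off libraries in blue, acoustics-on libraries in orange, a symbol for each replicate number and a line at each group mean. The dotted line marks 0.5 FPKM, the filter level. Gbp2, Gbp3 and Gbp7 lie below 0.17 FPKM in every acoustics-off library and near or above 0.49 FPKM in acoustics-on replicates 2 and 3, whereas the IRG genes lie above 1.9 FPKM in all libraries.

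The 4 IRG members were expressed in every library, and the ratios of their group means, acoustics on over off, were 0.942 to 1.66. For the GBP genes the ratios were 12.9 to 61.5, with acoustics-off means that rest on few reads. Ifi47 measured 3.92, 4.53 and 4.16 FPKM with acoustics off (mean 4.20 ± 0.309, SD, n = 3) and 8.87, 6.52 and 5.59 FPKM with acoustics on (6.99 ± 1.69). The groups did not overlap. Here acoustics-on replicate 1 was the highest library, where it was the lowest of its group for the GBP genes. The ratio of the means was 1.66, and the limma difference was 0.60 on the log2(FPKM + 1) scale (SE 0.176, adjusted p = 0.149), which did not pass. With libraries weighted by their own variance, limma gave Ifi47 an adjusted p of 0.0176. The authors' deposited table called Ifi47 higher, with a log2 fold change of 0.73 (SE 0.241, adjusted p = 0.0350).

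Igtp, the regulator also called Irgm3, measured 4.04, 3.76 and 4.22 FPKM with acoustics off against 5.42, 5.05 and 5.70 FPKM with acoustics on. The means were 4.01 ± 0.233 and 5.39 ± 0.323 FPKM, and the spread within both groups was narrow with no overlap between them. The limma difference of 0.35 (SE 0.123, adjusted p = 0.201) did not pass, nor did the log2 fold change of 0.43 in the authors' deposited table (adjusted p = 0.109). After a correction for length and GC content Igtp measured 4.29, 3.87 and 4.38 FPKM with acoustics off against 4.76, 4.79 and 5.94 FPKM with acoustics on. Its limma difference was then 0.25 (adjusted p = 0.249). The same correction lowered the difference of Ifi47 to 0.46 and raised that of Irgm1 to 0.335. Irgm1, which directs other IRGs and mitochondrial and lysosomal membranes in macrophages, was the most abundant of the 7 in every library. It measured 11.1, 10.4 and 10.4 FPKM with acoustics off against 13.4, 11.5 and 13.4 FPKM with acoustics on. The acoustics-on libraries were all higher, but by little: the limma difference was 0.24 (SE 0.123, adjusted p = 0.309), and the authors' deposited table gave 0.27 (adjusted p = 0.319).

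Irgm2, a regulator on Golgi and endosomal membranes, was the only member whose groups overlapped. It measured 2.72, 2.96 and 3.05 FPKM with acoustics off against 1.93, 2.97 and 3.32 FPKM with acoustics on. Acoustics-on replicate 1 was the lowest of the 6 libraries and replicate 3 the highest. The limma difference was -0.08 (SE 0.174, adjusted p = 0.788), and without acoustics-on replicate 1 it was 0.08. Igtp, whose exons overlap those of Irgm2, did not show the low value in that library.

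Of the 7 genes, 6 had every acoustics-on library above every acoustics-off library, as did 15.2% of all 16108 genes. Among the 2917 genes under 0.2 FPKM in every acoustics-off library, a level range that takes in Gbp2, Gbp3 and Gbp7, the share was 13.3%. With the filter of 0.5 FPKM in at least 3 libraries, limma tested 4 members and called 0 of them at an adjusted p of 0.05, while it called 242 of 11664 genes (2.07%). Ifi47 and Igtp had an unadjusted p under 0.05. Without the filter 0 of 7 were called, against 0.931% of 16108 genes. Of the 7 members, 4 were higher in the authors' deposited table and none lower, where 7.56% of all genes passed in either direction. The median log2 difference of the 4 tested members was 0.30, beside -0.03 for all genes tested. Taken for each acoustics-on library alone, relative to the mean of the acoustics-off group, it was 0.33, 0.19 and 0.33 for replicates 1, 2 and 3.

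With acoustics off the order of levels was Irgm1, Ifi47, Igtp, Irgm2, Gbp3, Gbp2 and Gbp7. Ifi47 and Igtp overlapped in their library values, as did Gbp3 with Gbp2 and Gbp2 with Gbp7, and the other neighbours did not. With acoustics on, Irgm1 remained first, Ifi47 and Igtp overlapped again, and Irgm2 came next. Gbp2 and Gbp3 in acoustics-on replicates 2 and 3 stood at 1.51 to 2.28 FPKM, under Irgm2 in the same libraries (2.97 and 3.32 FPKM).

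The other GBP genes included 2 with the pattern of Gbp2. Of 8 further GBP genes 7 were listed, Gbp11 not, and none passed the filter. Gbp2b, also known as Gbp1 and the neighbour of Gbp2, measured 0.0262, 0.0266 and 0.00896 FPKM with acoustics off against 0.105, 1.89 and 2.08 FPKM with acoustics on. Gbp5, which promotes inflammasome assembly, was listed at 0 in all 3 acoustics-off libraries and at 0.0402, 1.35 and 1.31 FPKM with acoustics on. Both genes lie on chromosome 3 beside the 3 GBP members, and both were high in the same 2 libraries. The authors' deposited table called Gbp2b higher with a log2 fold change of 6.04 (adjusted p = 1.047e-07), and it called Gbp5 (adjusted p = 0.00140) and Gbp9 (adjusted p = 0.0130) higher too.

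The GBP genes on chromosome 5 stayed lower. Gbp9 measured 0.0184, 0.0746 and 0.0222 FPKM with acoustics off against 0.131, 0.254 and 0.238 FPKM with acoustics on. Gbp4, Gbp6, Gbp8 and Gbp10 were under 0.26 FPKM in all 6 libraries, with highest values of 0.127, 0.246, 0.256 and 0.0518 FPKM. Groups did not overlap, with acoustics on higher, for 5 of the 7 listed genes (Gbp2b, Gbp4, Gbp5, Gbp8 and Gbp9), as for 13.3% of all genes under 0.2 FPKM in every acoustics-off library. For Gbp4 the lowest acoustics-on and highest acoustics-off libraries held about 0.821 and 0.816 reads, less than 1 read apart. For Gbp8 they held about 4.77 and 3.46 reads. Without the filter and acoustics-on replicate 1, limma gave adjusted p values of 0.00118 for Gbp2b, 0.00110 for Gbp5, 0.0365 for Gbp9 and 0.198 to 0.711 for the other 4. The promoter windows of Gbp2b and Gbp5 each held the response-element core once, and Gbp5 also held 2 gamma-activated sites. Among the other IRG genes described next, Gm12250 held the core 2 times, and Tgtp1, Tgtp2, Gm12185 and 9930111J21Rik1 held it once each. Irgq, Gm5431 and 9930111J21Rik2 did not hold it. Gm12185 and 9930111J21Rik1 were lower with acoustics on, and a link between the core and the direction was not tested.

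Most of the other IRG genes were lower with acoustics on or near the floor, and Tgtp2 was ordered like the GBP genes. Of 17 symbols searched 10 were listed, and of the 4 that passed the filter limma called none in either direction. The 17 are symbols rather than separate genes. Irgd, not listed as such, is another name of the member Ifi47, so an unlisted symbol need not be an absent gene. These 4 had lower values with acoustics on, with a median log2 difference of -0.90, and of -0.50 without acoustics-on replicate 1 and the filter. Gm5431, an IRG-like gene next to Irgm1, measured 6.21, 5.31 and 5.54 FPKM with acoustics off against 1.47, 3.59 and 3.49 FPKM with acoustics on, a limma difference of -0.85 (adjusted p = 0.151). The authors' deposited table called it lower (log2 fold change -0.99, adjusted p = 0.0495). Irgq, a divergent IRG without the usual GTPase motif, measured 6.37, 5.35 and 6.08 FPKM against 2.01, 3.93 and 4.50 FPKM, a limma difference of -0.67 (adjusted p = 0.201). Acoustics-on replicate 1 was the lowest library for both, and without it and the filter the differences were -0.56 (adjusted p = 0.0468) and -0.41 (adjusted p = 0.108).

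The gene models 9930111J21Rik1 and 9930111J21Rik2, in the same chromosome 11 cluster, showed the low value of that library most. 9930111J21Rik1 stood at 0.472 FPKM in acoustics-on replicate 1, against 5.32 and 4.25 FPKM in replicates 2 and 3 and 6.10 to 9.30 FPKM with acoustics off. 9930111J21Rik2 stood at 2.76 FPKM there, against 10.8 and 9.09 FPKM in the other two and 13.5 to 14.2 FPKM with acoustics off. Without that library and the filter their limma differences were -0.58 (adjusted p = 0.146) and -0.45 (adjusted p = 0.0697), against -1.24 (adjusted p = 0.254) and -0.96 (adjusted p = 0.254) with the filter and all libraries. Several models of this cluster overlap one another (9930111J21Rik1, Gm12185 and Tgtp1), so reads may be shared between them. Tgtp2, an effector IRG that binds parasite vacuoles, was low, at 0.281, 0.240 and 0.243 FPKM with acoustics off against 0.353, 0.593 and 0.611 FPKM with acoustics on. Its limma difference was 0.27 without the filter (adjusted p = 0.199) and 0.35 when acoustics-on replicate 1 was also left out (adjusted p = 0.0353). The rest were near the floor. Tgtp1, Iigp1, Gm12250, Gm4951 and Gm12185 were at most 0.333 FPKM in any library, and of these only Gm12250 (higher) and Gm12185 (lower) had groups that did not overlap.

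**Figure D3:**
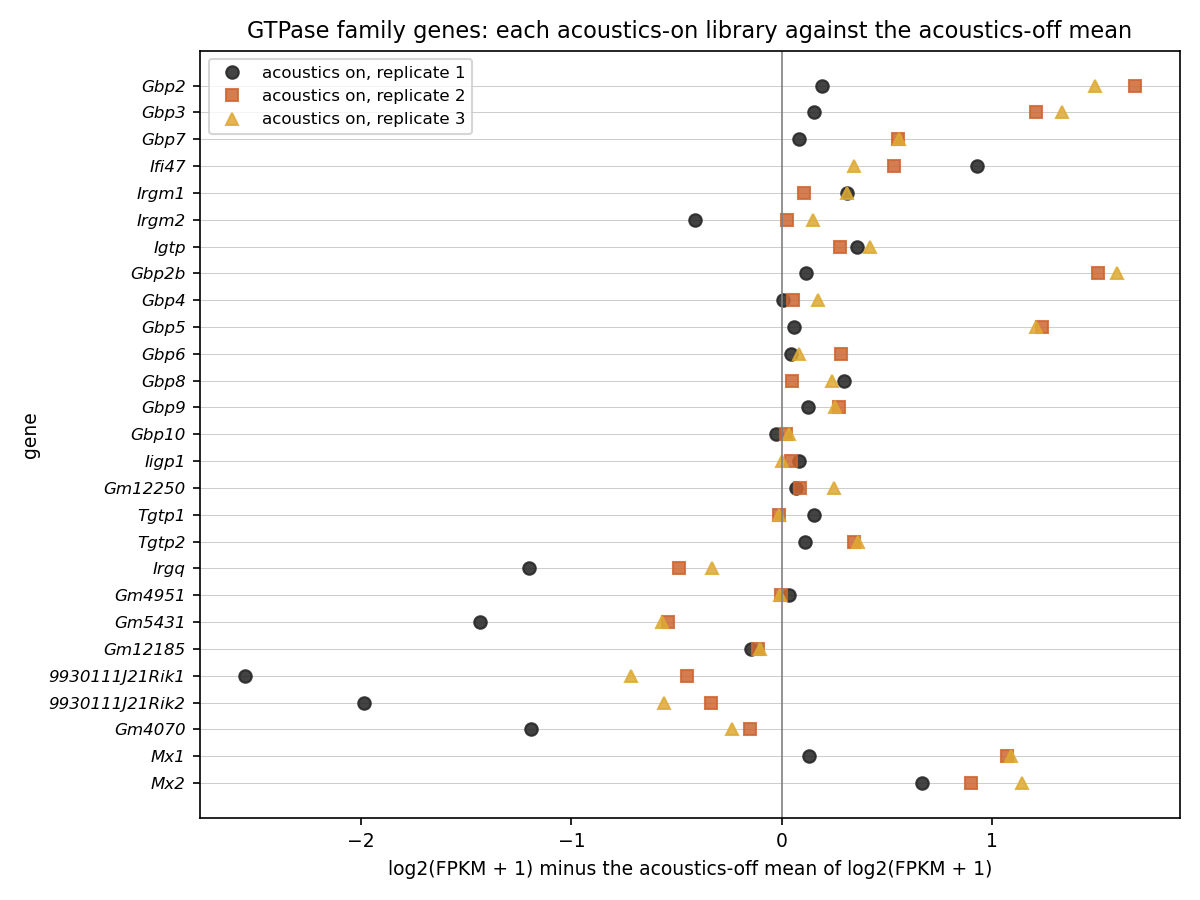
Each acoustics-on library's log2(FPKM + 1) minus the acoustics-off mean, for the 7 genes and the other listed GBP, IRG and Mx genes. Gbp2, Gbp3, Gbp2b, Gbp5 and Mx1 lie above 1.0 in replicates 2 and 3 and below 0.3 in replicate 1, whereas Ifi47 is highest in replicate 1 and the Irgq, Gm5431 and 9930111J21Rik models are lowest there.

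The Mx genes encode large interferon-induced GTPases that act on viruses. Mx2 rose: it measured 0.394, 0.378 and 0.341 FPKM with acoustics off against 1.18, 1.56 and 2.02 FPKM with acoustics on, a limma difference of 0.90 (SE 0.145, adjusted p = 0.0314). It was 1 of 2 tested genes of its list, where 1.50% of all genes were called higher. It passed the filter through the acoustics-on libraries alone, so its entry into the test depended on the group in which it is high, and without the filter it was not called (adjusted p = 0.0503). Leaving out any one library other than acoustics-on replicate 1 also ended the call (adjusted p up to 0.183, without acoustics-off replicate 3). Mx1 was below the filter and again high in 2 libraries, at 0.0443, 0.0435 and 0.123 FPKM with acoustics off against 0.169, 1.24 and 1.28 FPKM with acoustics on. Without the filter its limma difference was 0.76 (adjusted p = 0.234), and 1.08 when acoustics-on replicate 1 was also left out (adjusted p = 0.00249). The authors' deposited table called Mx1 higher (log2 fold change 3.67, adjusted p = 9.551e-05). Gm4070, a model of the very large inducible GTPases, had a limma difference of -0.53 (adjusted p = 0.320), which was -0.19 without acoustics-on replicate 1 and the filter. Across the whole table, 49 of 16108 genes reached 0.5 FPKM in acoustics-on replicates 2 and 3 and in no other library. They included Gbp2, Gbp3, Gbp2b, Gbp5, Tgtp2, Mx1 and Ifnb1. The rule follows the pattern already seen in the GBP genes, so their place among the 49 is no separate result. No other pair of libraries was counted.

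Of the interferon genes searched, Ifng was not listed. Ifnb1, which encodes interferon beta, was listed at 0 in 4 libraries: the whole acoustics-off group and replicate 1 of the acoustics-on group. Replicates 2 and 3 of the latter had 2.72 and 2.57 FPKM, from about 58.9 and 55.6 reads. Those are the 2 libraries in which Gbp2, Gbp3 and Gbp7 were high, and a link between Ifnb1 and these genes was not tested. In acoustics-on replicate 1 Irf7 (70.9 FPKM) and Usp18 (22.3 FPKM) were high too, while Mx1 (0.169 FPKM) and Cd274 (4.11 FPKM) were not. Ifnb1 did not pass in the authors' deposited table (log2 fold change 7.66, adjusted p = 0.245). Nor did it pass in limma without the filter (difference 1.24, adjusted p = 0.279). When acoustics-on replicate 1 was also left out, the limma difference of Ifnb1 was 1.86 (adjusted p = 0.000984), in a fit that called 2.58% of all genes higher. That fit was chosen after seeing the data and drops the acoustics-on library in which Ifnb1 was 0. Its adjusted p is therefore no support for a rise of Ifnb1. Il27, which encodes a subunit of the cytokine IL-27, rose from 1.17, 1.15 and 0.955 FPKM to 2.35, 2.54 and 2.37 FPKM, with a limma difference of 0.71 (SE 0.117, adjusted p = 0.0337). Leaving out any one library other than acoustics-on replicate 1 ended this call (adjusted p up to 0.228, without acoustics-off replicate 3), as did the correction for length and GC content (0.116). Of 13 genes searched as ligands, 3 were listed and 2 tested. Beside interferon genes the 13 took in the interleukin genes Il12a, Il12b, Il18 and Il27. The third listed gene, Il18, had a difference of 0.61 (adjusted p = 0.181).

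None of the 7 receptor and kinase genes passed the limma test, and their median difference was -0.25. Ifngr1, the ligand-binding chain of the interferon gamma receptor, measured 69.3, 69.8 and 71.7 FPKM with acoustics off against 33.7, 57.1 and 39.2 FPKM with acoustics on. The groups did not overlap, the limma difference was -0.72 (SE 0.196, adjusted p = 0.127), and the authors' deposited table called Ifngr1 lower (log2 fold change -0.70, adjusted p = 0.0410). Ifnar1, a chain of the type I interferon receptor, had a limma difference of -0.67 (adjusted p = 0.157). The partner chains Ifngr2 (0.07) and Ifnar2 (-0.25) and the kinases Jak1 (-0.40), Jak2 (-0.11) and Tyk2 (-0.06) had smaller limma differences. Without acoustics-on replicate 1 and the filter the differences were -0.45 for Ifnar1, 0.23 for Ifngr2, -0.33 for Ifnar2, -0.14 for Jak1, -0.25 for Jak2 and 0.16 for Tyk2, whose sign turned, and none passed.

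Among 12 tested transcription factor genes limma called 1 higher and none lower, beside 1.50% of all genes called higher. Irf7, the factor that amplifies type I interferon production, rose from 13.1, 15.7 and 13 FPKM to 70.9, 59.4 and 78.7 FPKM (difference 2.24, SE 0.148, adjusted p = 0.00196). All 3 acoustics-on libraries were high. Irf9, a DNA-binding part of the type I interferon factor complex, had a difference of 0.38 (adjusted p = 0.203), Stat2 of 0.29 (adjusted p = 0.343) and Irf1, which drives GBP genes, of -0.23 (adjusted p = 0.401). Irf8 (-0.60, adjusted p = 0.114) and Irf2 (-0.86, adjusted p = 0.201) were lower without passing, and without acoustics-on replicate 1 and the filter Irf2 passed at -0.49 (adjusted p = 0.0393) while Irf8 did not (-0.52, adjusted p = 0.106). The authors' deposited table called Irf8 and Ciita, the activator of class II genes, lower (adjusted p = 0.0260 and 0.000857).

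Of the pathway's inhibitors, limma called 1 of 7 tested genes, where 1.50% of all genes were called higher. Usp18, which removes ISG15 and damps the type I receptor, rose from 8.26, 9.06 and 8.81 FPKM to 22.3, 18.0 and 19.7 FPKM, a difference of 1.11 (SE 0.129, adjusted p = 0.0105). All 3 acoustics-on libraries were above all acoustics-off libraries, with replicate 1 the highest. Leaving out any one acoustics-off library ended the call (adjusted p up to 0.103, without replicate 1). Socs1, the main inhibitor of interferon gamma signals, was below 0.25 FPKM in every library, and Socs3 had a difference of -0.24 (adjusted p = 0.721), which turned to 0.24 without acoustics-on replicate 1 and the filter (adjusted p = 0.458). Sh2b3 and Pias1, which encode an adaptor and a STAT inhibitor, had differences of -0.42 (adjusted p = 0.311) and -0.53 (adjusted p = 0.330), and of -0.17 and -0.20 in the fit without that library. The median of the 7 genes moved from -0.24 to 0.06.

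**Figure D4:**
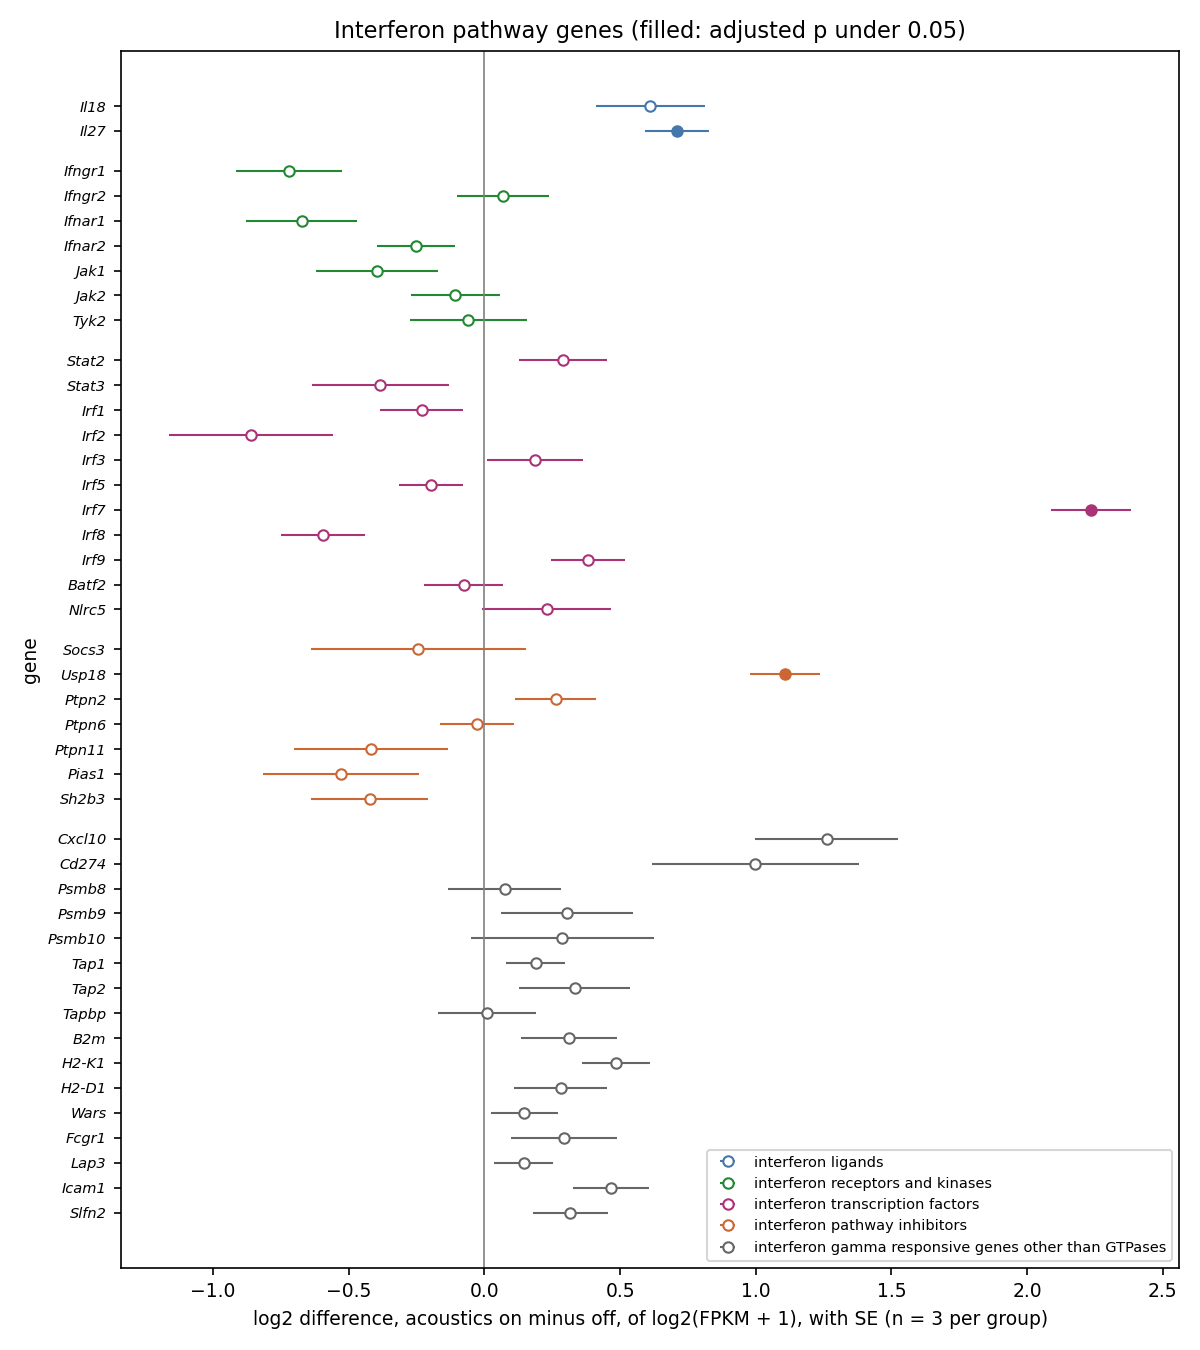
Limma log2 differences, acoustics on minus off, with SE (n = 3 per group) for tested genes among the ligands, receptors and kinases, transcription factors, inhibitors and interferon gamma responsive genes. Filled points passed an adjusted p of 0.05: Il27, Irf7 and Usp18, all higher with acoustics on.

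Other genes known to respond to interferon gamma gave no limma call among 16 tested, with a median difference of 0.30 and 8 genes whose acoustics-on libraries all lay higher, as for 15.2% of all genes. Without acoustics-on replicate 1 and the filter that median was 0.19. Cd274, which encodes PD-L1, measured 4.20, 3.80 and 3.96 FPKM with acoustics off against 4.11, 12.3 and 13.5 FPKM with acoustics on. It was high in replicates 2 and 3, and replicate 1 lay within the acoustics-off range. The limma difference was 1.00 (adjusted p = 0.223), and without the filter and acoustics-on replicate 1 it was 1.48 (adjusted p = 0.00249). Cxcl10, an interferon-induced chemokine, was 0.985, 0.138 and 0.393 FPKM against 3.37, 1.62 and 2.78 FPKM, a limma difference of 1.26 (adjusted p = 0.0697), with the highest value in acoustics-on replicate 1. The class I gene H2-K1 (0.49, adjusted p = 0.112) and the adhesion gene Icam1 (0.47, adjusted p = 0.153) did not pass. The authors' deposited table called Cxcl10, Cd274 and H2-K1 higher (adjusted p = 0.00390, 0.0177 and 0.0161).

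Of the genes of the machinery that acts with these GTPases, limma called 1, where it called 2.07% of all genes tested. The list of ubiquitin-like conjugation genes, which help to place GBPs and IRGs on vacuoles, also took in autophagy receptors. Its median limma difference was 0.04 over 15 tested genes (0.01 without acoustics-on replicate 1 and the filter). The listed gene that rose was an autophagy receptor, Sqstm1 (p62). It measured 272, 275 and 277 FPKM with acoustics off against 831, 493 and 868 FPKM with acoustics on (difference 1.36, SE 0.235, adjusted p = 0.0393). Leaving out any one acoustics-off library (adjusted p up to 0.205) or acoustics-on replicate 3 (up to 0.0956) ended the call, as did quantile scaling (0.0616) and testing without the filter (0.0703). Calcoco1, which encodes an autophagy receptor of the endoplasmic reticulum, was lower in every acoustics-on library (difference -0.37, adjusted p = 0.245), and Gabarapl2, which helps to target the GTPases, had a difference of 0.57 (adjusted p = 0.246). Neither passed, and without acoustics-on replicate 1 and the filter they were -0.23 and 0.33. None of 8 inflammasome and cell death genes passed, with a median of 0.14 (0.22 without acoustics-on replicate 1 and the filter) and Casp1, the inflammasome protease, at 0.40 (adjusted p = 0.164). None of 6 prenylation genes, whose products add the lipid that anchors some GBPs, passed either (median -0.09, and 0.04 without acoustics-on replicate 1 and the filter).

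The mean pattern of the 7 members, each standardised over the 6 libraries, was -0.61, -0.66 and -0.59 with acoustics off and 0.07, 0.74 and 1.05 in acoustics-on replicates 1 to 3. The genes outside the GTPase lists most like it were Gsr, encoding glutathione reductase (Pearson r = 0.999), Itgb2, the beta chain of leukocyte integrins (0.997), the predicted genes Gm7609 (0.997) and Gm9816 (0.997), and Spata6 (0.996). These values describe 6 libraries in 2 groups, picked as the highest of 11654 genes, of which 269 had r over 0.9. Gsr had a limma difference of 0.75 (adjusted p = 0.0874), so it did not pass.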

How the data were processed

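The submitters' processing notes name STAR 2.7.11, Trim Galore 0.6.8, DESeq2 1.38.2 and Salmon 1.4.0, with the build GRCm38 (mm10), and no order or settings. The labels' protocols name a kit that depletes ribosomal RNA, although the molecule entry in the labels reads polyA RNA. The authors deposited FPKM per gene and library. The authors' deposited comparison table holds a mean normalised count (a signal), log2 fold changes with SE, a score (fold change over SE), p-values and adjusted p-values, of which 1586 were missing and stayed so.

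The files used held no counts, so a count test was not run. Genes with at least 0.5 FPKM in at least 3 libraries were tested with limma 3.58.1 (R 4.3.3; trended, robust prior) on log2(FPKM + 1), acoustics on minus off, with Benjamini-Hochberg adjustment over all 11664 genes and a threshold of 0.05. Genes under the filter were tested without it. On simulated data with 200 changed genes, 55.0% of log2 changes of 1 and 88.3% of changes of 2 were found, with 4.09% false calls, over a mean of 11459 genes. The simulated noise was independent between genes and equal in both groups, with the SDs shuffled among genes. It held no outlying library and no length trend, so these shares need not hold for the real libraries. Approximate reads are FPKM times the authors' mean normalised count over the mean FPKM. Of the low values, 57.8% to 68.6% came within 0.05 of a whole number, so reads were not recovered. No 2 libraries were identical. Promoter windows came from RefSeq (GRCm38.p6), gene positions from GENCODE M21.

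The genes and lists were chosen with earlier results of these data known. The text names all 7 members, every other listed GBP and IRG gene, each gene of the pathway lists that passed, up to 4 further genes of each list by smallest p, and the 5 genes most like the members' mean pattern. Stat2, Irf1, the receptor chains and kinases, Socs1, Socs3, Mx1, Ifnb1, Ciita and Gm4070 were named for their role in the pathway or after their values were seen. One transcription factor gene counts in its list but is not reported here. The alternatives covered pseudocounts of 0.1 and 0.5, a filter of 1 FPKM and none, quantile and median scaling, library weights, a prior without robust fitting, a length and GC correction, a replicate block and leaving out each library.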

Additional observations from a re-analysis of the deposited data

How the results depend on the processing

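All 7 members kept the direction of their difference under each alternative run, except Irgm2, which was 0.0145 with library weights and 0.0844 without acoustics-on replicate 1, and which ran from -0.20 to 0.08 over the fits that left out 1 library. The median of the 4 tested members stayed positive. The count of members called was 0, except 1 with library weights (Ifi47), 4 with library weights and no filter, and 3 without acoustics-on replicate 1 and with no filter, so that leaving out 1 library gave 0 to 3. The last 2 were chosen after seeing the data. Over all alternatives the lowest adjusted p was 0.018 for Ifi47, 0.085 for Igtp, 0.19 for Irgm1 and 0.43 for Irgm2, and the highest were 0.49, 0.54, 0.61 and 0.95. For Gbp2, Gbp3 and Gbp7 adjusted p ran from 0.0018, 0.0040 and 0.0035 to 0.54, 0.54 and 0.53.

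Over all genes, limma called 242 (175 higher, 67 lower), 1882 with library weights (1098 and 784), 644 with the length and GC correction (329 and 315), 119 with the replicate block and that correction, and 150 with no filter (116 and 34). Quantile scaling gave 320 (209 and 111). Leaving out 1 library gave 17 to 913 calls: with the filter of all libraries kept, 32, 19 and 29 without acoustics-off replicates 1, 2 and 3, and 913, 397 and 78 without acoustics-on replicates 1, 2 and 3. The cause of these changes was not tested. The samples share only a replicate number: same-numbered deviations correlated at -0.07, -0.02 and 0.00, and the replicate block called 179 genes and 0 members. The block ended the calls of Mx2 (adjusted p = 0.0594) and Il27 (0.103), and with the length and GC correction those of Mx2 (0.0743), Il27 (0.193) and Sqstm1 (0.0510). DESeq2 on counts was not run, since the files used hold no counts. Depth limits Gbp2 and Gbp7 most, with about 1.03 to 4.06 reads per library with acoustics off.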
